A study of Mus musculus with 12 samples.

Results

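The solute carrier genes were examined in spleen T cells and kidney cells of diabetes-prone mice and mice derived from them. A gene counted as a member where its probes carry a single symbol that starts with Slc and a number, or with Slco, and Slc4a1 was left out. The rule used no measured value. It gave 150 genes, read by 184 probes, of the 8708 named genes of the array, and 116 of the 150 had a value on all 12 arrays. Of the 150, 2 match by symbol but encode no carrier: Slc9a3r1 encodes the scaffold protein NHERF1, and Slc7a6os is named for its position opposite Slc7a6.

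Each of the 12 cDNA arrays compared experimental RNA with B6 RNA in a pair of colour channels, in 6 groups of 2 arrays. The NOD group held spleen T cells of NOD mice, a strain that becomes diabetic through autoimmunity. The NOD.H2h4 group held spleen T cells of NOD mice with a different MHC haplotype. The B6.NODIdd1,5 groups held spleen T cells, and in a group of their own kidney cells, of B6 mice that carry the NOD intervals Idd1, with the MHC, and Idd5. They are called congenic T cells and congenic kidney here. The marrow transfer groups held spleen T cells of B6 recipients of NOD marrow (NODtoB6) and of NOD recipients of B6 marrow (B6toNOD). Kidney RNA was set against B6 kidney cells and all T cell RNA against B6 spleen T cells. The age and sex of the mice, the sorting of the T cells, the treatment of marrow recipients and the host T cells they kept are not stated in the labels used here. Nor do the sources state that the arrays of a group came from separate animals, so p-values measure only the spread between arrays, which may be technical. The 8 strain arrays carried experimental RNA in Cy5. Against B6, a dye bias of a single gene therefore cannot be told apart from a difference from B6. This holds also for a gene with the same sign on every array. A difference of 2 groups cancels such a bias where both have the same orientation. No label used here states the dyes of the 4 arrays on marrow recipients, and every direction in those groups assumes the same orientation, which is likely from the order of the channels but was not settled.

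Solute carriers move amino acids, sugars, nucleosides, lipids, vitamins, metals and ions across the plasma membrane and the membranes of organelles, mostly as exchangers or as cotransporters driven by ion gradients. Activation of T cells is known to raise carriers of glucose, glutamine, large neutral amino acids and lactate. In the kidney, tubule cells use other members to recover filtered sugars, amino acids, phosphate and vitamins and to secrete organic ions.

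Each value is a log2 ratio to B6, taken after its array was centred on its median, so 0 is the typical feature of that array. The arrays' medians as deposited lay between -0.009 and -0.878, and the members' own medians after centring between -0.022 and -0.184. Between 18837 and 20558 probes had a value on an array. Group values are means of n = 2 arrays ± the standard error of a limma fit over all 12 arrays, and a gene passed where its Benjamini-Hochberg adjusted p-value over all features tested was below 0.05. Since the files hold ratios and no intensities, depth and signal over background are unknown, levels of different genes cannot be compared, and the labelled cell types cannot be checked by the level of their markers. In bulk RNA, fewer cells of a type and less RNA per cell cannot be told apart. Markers of other cell types differed between groups. The median of 6 myeloid markers (Cybb, Fcgr3, Lcn2, Ltf, Lyz2 and S100a9) was 0.57 in NOD, 0.0 in NOD.H2h4, -0.36 in congenic T cells, -0.18 in congenic kidney, 1.93 in NODtoB6 and 3.01 in B6toNOD. All 6 passed as higher in B6toNOD, 5 in NODtoB6 and 4 in NOD, and each of the 6 had a value on all 12 arrays. The median of the erythroid markers Alas2, Car1, Car2, Hbb-b1, Hbb-bh1, Rhd and Tfrc was 0.48 in NOD, -0.06 in NOD.H2h4, -0.6 in congenic T cells, 0.02 in congenic kidney, 0.88 in NODtoB6 and 0.51 in B6toNOD. The median of the B cell markers Blk, Cd79b, H2-Aa, Ighm and Vpreb3 was -0.38 in NOD, -1.16 in NOD.H2h4, 0.37 in congenic T cells, -0.25 in congenic kidney, -0.67 in NODtoB6 and -1.42 in B6toNOD. Of the B cell markers, 2 were lower and 1 higher of 5 in NOD.H2h4, 2 and 2 of 5 in NODtoB6 and 1 and 0 of 3 in B6toNOD. H2-Aa is itself a gene of the MHC, whose haplotype differs between groups. It read -1.79 and -1.57 in NOD.H2h4, 1.63 and 1.68 in NODtoB6 and -3.93 and no value in B6toNOD. The part of these cell types in the member values was not tested.

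Against B6, the share of members past the threshold lay near that of all features in every comparison, so these shares are no result about the solute carriers. In NOD, 15 of 149 members passed (10.1%, against 12.4% of all features), 9 higher and 6 lower (5.63% and 2.35% of all named genes). In NOD.H2h4, 51 of 148 passed (34.5%, against 39.7%), 24 higher and 27 lower (15.6% and 18.7% of named genes). In congenic T cells, 37 of 132 passed (28%, against 30.9%), 16 higher and 21 lower (11.1% and 18.4% of named genes). In congenic kidney, 40 of 143 passed (28%, against 33.9%), 21 higher and 19 lower (14.3% and 12.2% of named genes). In NODtoB6, 41 of 141 passed (29.1%, against 27.4%), 14 higher and 27 lower (13.1% and 12.7% of named genes). In B6toNOD, 70 of 137 passed (51.1%, against 51.9%), 30 higher and 40 lower (26.5% and 21.8% of named genes). The members' median value was -0.03 in NOD, -0.16 in NOD.H2h4, -0.05 in congenic T cells, -0.11 in congenic kidney, -0.19 in NODtoB6 and -0.25 in B6toNOD, beside medians of all features between -0.04 and 0.01.

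Differences between groups gave a like picture. Congenic kidney minus congenic T cells passed for 21 of 131 members (16%, against 21.9% of all features), 9 higher and 12 lower (11% and 6.58% of named genes). NOD.H2h4 minus NOD passed for 20 of 148 (13.5%, against 18.7%), 15 higher and 5 lower (7.25% and 7.29% of named genes). NODtoB6 minus B6toNOD passed for 48 of 131 (36.6%, against 37%), 18 higher and 30 lower (12.7% and 21.2% of named genes).

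**Figure D1:**
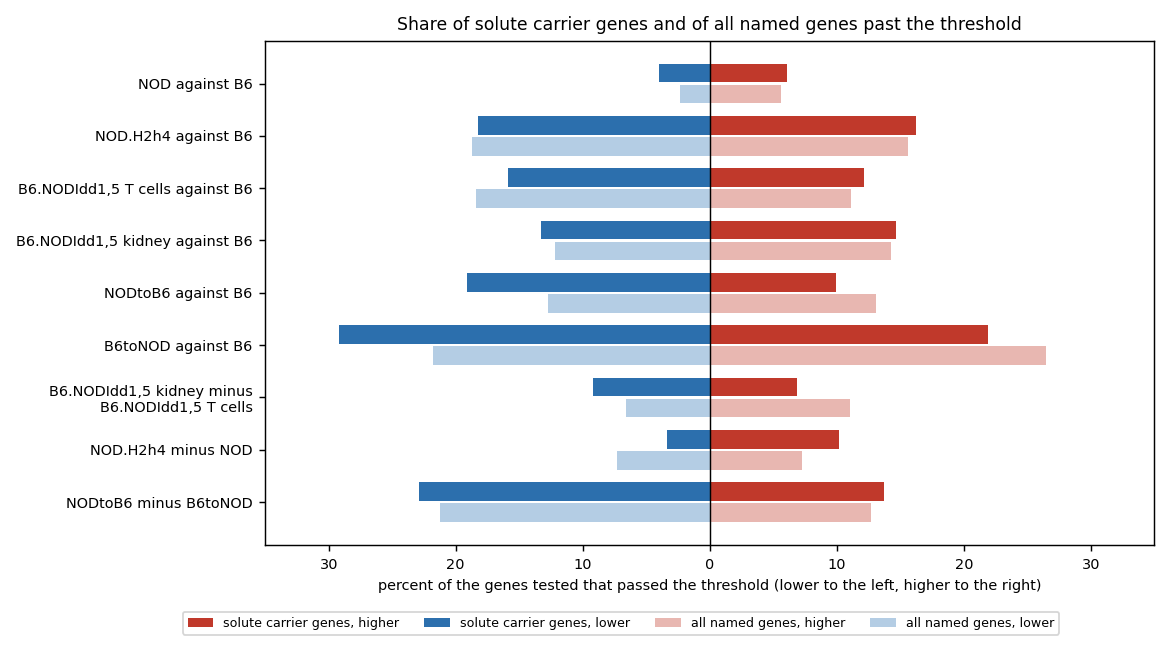
Percent of tested solute carrier genes past the threshold in each comparison, higher and lower apart, beside the percent of all named genes past it in the same direction. In B6toNOD 30 members passed as higher and 40 as lower, and in NOD 9 and 6.

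The split between higher and lower rests on the centring. As deposited, without centring, the members that passed were 1 higher and 3 lower in NOD, 3 and 94 in NOD.H2h4, 11 and 22 in congenic T cells, 1 and 42 in congenic kidney, 2 and 34 in NODtoB6, and 5 and 83 in B6toNOD. The differences then gave 2 higher and 12 lower for kidney minus T cells, 2 and 45 for NOD.H2h4 minus NOD, and 36 and 12 for NODtoB6 minus B6toNOD. After each array was scaled to the same spread, the splits were 18 and 19 in NOD, 20 and 21 in NOD.H2h4, 17 and 27 in congenic T cells, 18 and 17 in congenic kidney, 16 and 35 in NODtoB6 and 18 and 25 in B6toNOD. The differences after scaling gave 10 and 12, 9 and 7, and 10 and 24 in the same order. A small higher value in NOD.H2h4, congenic kidney or B6toNOD is therefore a statement about that gene against the typical feature of its array.

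Over the 9 comparisons there were 343 calls on members, of which 129, on 65 genes, held when each of the 12 arrays was left out in turn. They were 23 in NOD.H2h4, 14 in congenic T cells, 8 in congenic kidney, 10 in NODtoB6, 37 in B6toNOD, 8 for kidney minus T cells, 2 for NOD.H2h4 minus NOD and 27 for NODtoB6 minus B6toNOD. None of the 15 calls in NOD held. These counts are no measure of how far the groups differ, because the arrays differ in their spread over features. The median absolute deviation was 0.195 and 0.243 on the NOD arrays and 0.614 and 0.597 on the B6toNOD arrays. After scaling to the same spread, 31.3% of all features passed in NOD and 32.4% in B6toNOD, beside 12.4% and 51.9% before. The calls rest on a spread shared by the 6 groups. Where limma was fitted to the arrays of a comparison alone, no member passed in congenic T cells, NODtoB6, B6toNOD or NODtoB6 minus B6toNOD, although 38, 43, 52 and 42 had an unadjusted p-value below 0.05. A complete probe, given below where a gene's other probe lacks values, is one with a value on all 12 arrays. Below, a call that did not hold is given with the arrays without which it ended or is said not to hold. A call on a member given without either held.

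**Figure D2:**
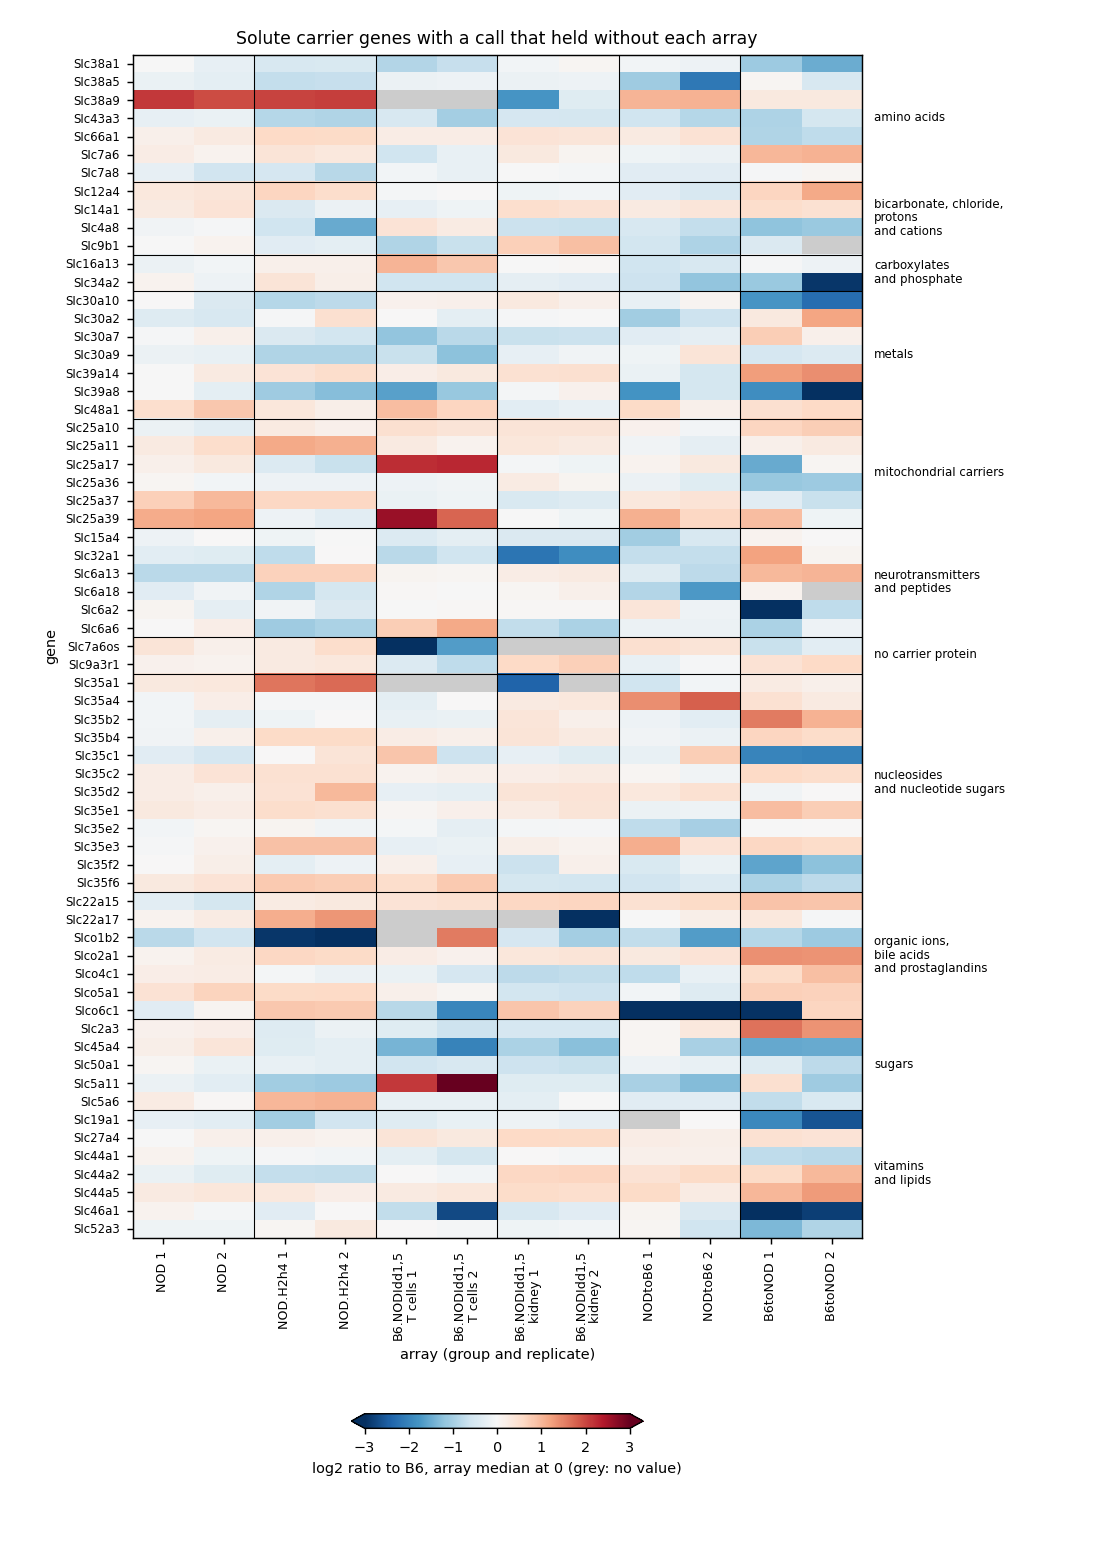
Log2 ratio to B6 of the 65 solute carrier genes with at least 1 call that held without each array, by transport class and on each of the 12 arrays, from blue (lower than B6) through white to red (higher), with cells of no value left grey. Slc46a1 is blue on both B6toNOD arrays, at -4.28 and -2.82, and Slc38a9 is red on both NOD and both NOD.H2h4 arrays.

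Among the 19 amino acid carriers, the lysosomal arginine sensor Slc38a9, which signals to mTORC1, was the highest member in both NOD and NOD.H2h4. Its arrays read 2.12 and 1.96 in NOD, 2.03 and 2.08 in NOD.H2h4, -1.77 and -0.37 in congenic kidney, 1.01 and 1.05 in NODtoB6 and 0.29 and 0.30 in B6toNOD, with no value in congenic T cells. Both arrays of the NOD and NOD.H2h4 groups lay above all those of the other groups. The group value was 2.06 ± 0.29, adjusted p = 0.00176 in NOD.H2h4. In NOD it was 2.04 ± 0.29, adjusted p = 0.00844, a call that ended without NOD replicate 1 (adjusted p = 0.0742) or NOD replicate 2 (adjusted p = 0.111). In NODtoB6 it was 1.03 ± 0.29, adjusted p = 0.0401, which ended without NODtoB6 replicate 1 (adjusted p = 0.171) or NODtoB6 replicate 2 (adjusted p = 0.198) or either array of the NOD, NOD.H2h4 groups (adjusted p up to 0.0696), and in congenic kidney -1.07 ± 0.29, adjusted p = 0.0295, which ended without kidney replicate 1 (adjusted p = 0.0926) or either array of the NOD, NOD.H2h4 groups (adjusted p up to 0.054). Slc66a1, another lysosomal carrier, of cationic amino acids, read 0.60 and 0.58 in NOD.H2h4 (0.59 ± 0.072, adjusted p = 0.000562) and -0.90 and -0.76 in B6toNOD (-0.83 ± 0.07, adjusted p = 5.87e-05). It was higher in NODtoB6 than in B6toNOD by 1.18 ± 0.098, adjusted p = 0.000141. Its value in NOD.H2h4 was -0.21 as deposited (adjusted p = 0.147).

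The glutamine carriers of the plasma membrane gave lower calls. Slc38a1, a sodium-coupled glutamine carrier, read -0.89 and -0.69 in congenic T cells and -1.09 and -1.48 in B6toNOD, below both NODtoB6 arrays, at -0.083 and -0.15. It fell in congenic T cells (-0.79 ± 0.11, adjusted p = 0.00163) and in B6toNOD (-1.29 ± 0.11, adjusted p = 6.01e-05), and NODtoB6 exceeded B6toNOD by 1.17 ± 0.15, adjusted p = 0.000927. Its 2 probes read -2.37 and -0.21 in B6toNOD, so 1 of them carries most of that value, and that probe gave no value in congenic T cells. With the other probe of Slc38a1 alone, which has a value on all 12 arrays, B6toNOD stood at -0.22 (adjusted p = 0.31) and NODtoB6 minus B6toNOD at 0.23 (adjusted p = 0.497), both short of the threshold. Slc38a5, a glutamine carrier of the same family that is also found in red cell precursors, fell in NODtoB6 to -1.07 and -2.14 (-1.60 ± 0.23, adjusted p = 0.00308), while its B6toNOD arrays read 0.066 and -0.48. The lower NODtoB6 array of Slc38a5 averages a second probe, at -3.09, that has no value on the other, and the complete probe alone gave -1.13 (adjusted p = 0.00132). The difference of Slc38a5 between the marrow groups, -1.39 ± 0.32, adjusted p = 0.0123, ended without B6toNOD replicate 1 (adjusted p = 0.056). Slc38a2, a glutamine and alanine carrier that responds to amino acid shortage, read -0.72 and -0.41 in congenic T cells (-0.57 ± 0.12, adjusted p = 0.0101), a call that ended without congenic T cell replicate 1 (adjusted p = 0.12). Slc1a5, the exchanger ASCT2 by which activated T cells take up glutamine, read -0.93 and -1.16 in NOD, -1.02 and -0.74 in NOD.H2h4 and -0.40 and -1.24 in B6toNOD, lower on all of these 6 arrays. In NOD (-1.05 ± 0.23, adjusted p = 0.0315) the call ended without NOD replicate 1 (adjusted p = 0.138) or NOD replicate 2 (adjusted p = 0.304) or either array of the NOD.H2h4, NODtoB6 groups (adjusted p up to 0.0576). In NOD.H2h4 (-0.88 ± 0.23, adjusted p = 0.0222) it ended without NOD.H2h4 replicate 1 (adjusted p = 0.193) or NOD.H2h4 replicate 2 (adjusted p = 0.0885). In B6toNOD (-0.82 ± 0.23, adjusted p = 0.0224) it ended without B6toNOD replicate 2 (adjusted p = 0.214).

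The light chains of the large amino acid exchangers and their shared heavy chain were called in several groups, and both Slc7a6 and Slc3a2 passed as lower in congenic T cells. Neither of these calls held without each array, and the congenic T cell arrays of Slc7a6 read -0.59 and -0.22. Slc7a6, the light chain y+LAT2, read 0.99 and 1.05 in B6toNOD and -0.12 and -0.17 in NODtoB6, and it rose in B6toNOD (1.02 ± 0.1, adjusted p = 0.000125) and was lower in NODtoB6 than there by -1.17 ± 0.14, adjusted p = 0.000651. The B6toNOD value was 0.26 as deposited (adjusted p = 0.169). Slc7a8, the light chain LAT2, fell in NOD.H2h4, with arrays at -0.49 and -0.83 (-0.66 ± 0.11, adjusted p = 0.00244). Slc3a2, which encodes the shared heavy chain CD98, read -1.23 and -1.15 in congenic T cells (-1.19 ± 0.36, adjusted p = 0.0413), and the call ended without congenic T cell replicate 1 (adjusted p = 0.196) or congenic T cell replicate 2 (adjusted p = 0.165) or either array of the NOD, NOD.H2h4, kidney groups (adjusted p up to 0.0676). In NODtoB6 its arrays read -2.20 and -1.41 (-1.80 ± 0.36, adjusted p = 0.0108) and the call ended without NODtoB6 replicate 1 (adjusted p = 0.103), but its probes stood at -3.65 and 0.04 there. In B6toNOD the arrays of Slc3a2 read -0.77 and 0.99 and the value did not pass (0.11 ± 0.36, adjusted p = 0.815), but they average different probes: 1 probe read 1.17 and 0.99, and the other -2.71 and no value. The complete probe alone gave 1.07 in B6toNOD (adjusted p = 0.0215), -1.74 in congenic T cells (adjusted p = 0.00458) and -3.65 in NODtoB6 (adjusted p = 0.000306). For NODtoB6 minus B6toNOD that probe gave -4.72 (adjusted p = 0.000182), while the other probe read 0.061 and 0.014 in NODtoB6. Slc43a3, a nucleobase carrier placed here by its family, fell in NOD.H2h4, with arrays at -0.85 and -0.90 (-0.88 ± 0.15, adjusted p = 0.00258). It was below 0 on all 12 arrays. As a class, the amino acid carriers gave 4 higher and 6 lower of 18 in NOD.H2h4 (55.6%, against 39.7% of all features), 2 and 5 of 16 in congenic T cells (43.8%, against 30.9%), and 1 and 6 of 16 in B6toNOD (43.8%, against 51.9%).

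Among the glucose carriers, Slc2a3 rose in B6toNOD and Slc2a1 was not called. Slc2a3, the high-affinity glucose carrier GLUT3 of lymphocytes, read 1.63 and 1.34 in B6toNOD and 0.068 and 0.31 in NODtoB6, so the marrow groups did not overlap. It rose in B6toNOD by 1.48 ± 0.11, adjusted p = 2.94e-05, and NODtoB6 minus B6toNOD was -1.30 ± 0.15, adjusted p = 0.000571. In congenic T cells its arrays were low, at -0.36 and -0.62 (-0.49 ± 0.11, adjusted p = 0.0122), and that call ended without congenic T cell replicate 2 (adjusted p = 0.133). In congenic kidney it also read low, at -0.50 and -0.51 (-0.50 ± 0.11, adjusted p = 0.0101), and that call ended without kidney replicate 1 (adjusted p = 0.0967) or kidney replicate 2 (adjusted p = 0.0981). Slc2a1, the glucose carrier GLUT1 that rises when T cells divide, passed in no comparison, with 0.59 ± 0.39 in B6toNOD (adjusted p = 0.239) and arrays that differed in sign in congenic T cells, at -0.46 and 1.44.

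Other members of the sugar families went both ways. Slc45a4, of a family of proton-coupled sugar carriers, read -1.40 and -2.01 in congenic T cells (-1.71 ± 0.23, adjusted p = 0.00152) and -1.53 and -1.50 in B6toNOD (-1.52 ± 0.23, adjusted p = 0.00121). Slc50a1, a sugar exporter of the SWEET family, read -0.62 and -0.67 in congenic kidney (-0.65 ± 0.1, adjusted p = 0.00285) and -0.39 and -0.77 in B6toNOD (-0.58 ± 0.1, adjusted p = 0.00249). On the congenic T cell arrays it read -0.57 and -0.48 (-0.52 ± 0.1, adjusted p = 0.00774), a call that ended without congenic T cell replicate 1 (adjusted p = 0.0721). Slc5a11, a sodium-coupled inositol and glucose carrier, had the highest value of the members tested in congenic T cells, with arrays at 2.11 and 4.29 (3.20 ± 0.5, adjusted p = 0.00271), and its kidney arrays read -0.37 and -0.36. The 2 congenic T cell arrays of Slc5a11 lie far apart, and the call held without either. Slc5a6, a carrier of biotin and pantothenate in the same family, rose in NOD.H2h4 with arrays at 0.99 and 1.05 (1.02 ± 0.1, adjusted p = 0.000216), where its value was 0.22 as deposited (adjusted p = 0.182). It fell in B6toNOD, at -0.74 and -0.46 (-0.60 ± 0.099, adjusted p = 0.00172). The sugar families gave 1 higher and 4 lower of 12 in congenic T cells (41.7%, against 30.9% of all features), 0 and 4 of 12 in congenic kidney (33.3%, against 33.9%), 1 and 5 of 10 in B6toNOD (60%, against 51.9%), and 1 and 0 of 11 in NOD.H2h4 (9.09%, against 39.7%).

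Of the carboxylate and phosphate carriers, 1 was higher and 1 lower of 6 in congenic T cells (33.3%, against 30.9% of all features) and 1 and 2 of 8 in B6toNOD (37.5%, against 51.9%). Slc16a3, the lactate exporter MCT4 of glycolytic cells, read 0.85 and 1.52 in B6toNOD (1.19 ± 0.23, adjusted p = 0.00377), and the call ended without B6toNOD replicate 2 (adjusted p = 0.0506). The congenic T cell arrays read -0.75 and -1.68 (-1.22 ± 0.23, adjusted p = 0.00636), and the call ended without congenic T cell replicate 2 (adjusted p = 0.0615). Slc16a1, the lactate carrier MCT1, passed nowhere, with NOD.H2h4 arrays at -0.33 and -0.60 and a group value there of -0.46 ± 0.17 (adjusted p = 0.0648). Its complete probe alone passed as lower in congenic T cells at -0.69 (adjusted p = 0.0149), congenic kidney at -0.91 (adjusted p = 0.00432) and NODtoB6 at -0.91 (adjusted p = 0.00685). The other probe of Slc16a1 lay above 0, at 0.21 in congenic T cells, 0.16 in congenic kidney and 0.35 in NODtoB6. Slc16a13, a member of the same family, rose in congenic T cells, at 1.03 and 0.80 (0.92 ± 0.076, adjusted p = 0.000171), with its 2 probes at 0.13 and 1.7. It fell in NODtoB6, at -0.59 and -0.48 (-0.54 ± 0.078, adjusted p = 0.00322). Slc34a2, a sodium-phosphate cotransporter of epithelia, fell in B6toNOD, with arrays far apart at -1.12 and -2.91 (-2.02 ± 0.35, adjusted p = 0.00234) and probes at -2.57 and -1.47. Slc20a1, the phosphate carrier PiT1, read -1.57 and -0.43 there (-1.0 ± 0.33, adjusted p = 0.0379), and its call ended without B6toNOD replicate 1 (adjusted p = 0.412) or either array of the NOD, NOD.H2h4, NODtoB6 groups (adjusted p up to 0.0611). The complete probe of Slc20a1 alone gave -0.39 (adjusted p = 0.345).

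The nucleotide sugar carriers of the Golgi and endoplasmic reticulum, which supply the glycosylation enzymes, form, with the nucleoside carriers, the largest class and the one with the most higher calls in NOD.H2h4, 7 higher and 2 lower of 21 (42.9%, against 39.7% of all features), beside 24 higher and 27 lower over all members. Slc35a1, which brings CMP-sialic acid into the Golgi, read 1.61 and 1.70 in NOD.H2h4 and 0.30 and 0.32 in NOD. It rose in NOD.H2h4 by 1.65 ± 0.13, adjusted p = 0.00041, a call that also passed as deposited. NOD.H2h4 exceeded NOD by 1.34 ± 0.19, adjusted p = 0.00982, but that difference, as called, ended without NOD.H2h4 replicate 1 (adjusted p = 0.0551) or NOD.H2h4 replicate 2 (adjusted p = 0.0616) or NOD replicate 1 (adjusted p = 0.05) or NOD replicate 2 (adjusted p = 0.0557). Slc35e3, a member whose substrate is not named here, read 0.87 and 0.89 in NOD.H2h4 (0.88 ± 0.14, adjusted p = 0.00229) and 1.10 and 0.41 in NODtoB6 (0.75 ± 0.14, adjusted p = 0.00928), with 0.079 as deposited (adjusted p = 0.659) in NOD.H2h4. Slc35b4, a carrier of UDP-xylose and UDP-N-acetylglucosamine, read 0.56 and 0.58 in NOD.H2h4 (0.57 ± 0.082, adjusted p = 0.00122) and 0.65 and 0.55 in B6toNOD (0.60 ± 0.08, adjusted p = 0.000597). Its B6toNOD value rests on the centring, with array medians there of -0.644 and -0.878 as deposited. Slc35d2, a carrier of UDP-N-acetylglucosamine, rose in NOD.H2h4, at 0.44 and 0.97 (0.71 ± 0.12, adjusted p = 0.00263). Slc35c2 and Slc35e1 read 0.47 and 0.47 and 0.52 and 0.47 in that group, with group values of 0.47 ± 0.074, adjusted p = 0.00203 for the former and 0.50 ± 0.075, adjusted p = 0.0016 for the latter, whose probes read -0.08 and 1.07. None of Slc35b4, Slc35d2, Slc35c2 and Slc35e1 kept a higher value as deposited in NOD.H2h4: Slc35b4 was at -0.23 as deposited (adjusted p = 0.12), Slc35d2 at -0.093 as deposited (adjusted p = 0.638), Slc35c2 at -0.34 as deposited (adjusted p = 0.0296) and Slc35e1 at -0.30 as deposited (adjusted p = 0.0905).

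In the marrow transfer groups the nucleotide sugar carriers went both ways. Slc35b2, which brings the sulphate donor PAPS into the Golgi, read 1.56 and 1.05 in B6toNOD and -0.15 and -0.32 in NODtoB6. It rose in B6toNOD by 1.30 ± 0.13, adjusted p = 0.000111, and NODtoB6 minus B6toNOD was -1.54 ± 0.18, adjusted p = 0.000519. Slc35c1, which brings in GDP-fucose, went the other way, at -1.97 and -2.03 in B6toNOD (-2.0 ± 0.34, adjusted p = 0.00185) and -0.23 and 0.74 in NODtoB6, a difference of 2.26 ± 0.47, adjusted p = 0.00793. Slc35f2 fell in B6toNOD, at -1.59 and -1.23 (-1.41 ± 0.2, adjusted p = 0.000709). In NODtoB6, Slc35a4 was the highest member, at 1.39 and 1.79 (1.59 ± 0.13, adjusted p = 0.000234), and exceeded B6toNOD by 1.22 ± 0.18, adjusted p = 0.00148. Slc35e2 fell in NODtoB6, at -0.76 and -1.0 (-0.88 ± 0.092, adjusted p = 0.000841), while its B6toNOD arrays lay at 0, with -0.013 and 0.016. Slc35e1 and Slc35c2 were lower in NODtoB6 than in B6toNOD by -1.0 ± 0.1, adjusted p = 0.000319 and -0.58 ± 0.1, adjusted p = 0.00356. As deposited, array medians were -0.304 and -0.16 in NODtoB6 and -0.644 and -0.878 in B6toNOD. The difference of Slc35c2 thus rests largely on the centring, and that of Slc35e1 in part.

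Slc35f6, a member of the same family found in lysosomes and mitochondria, changed sign between groups. It read 0.28 and 0.42 in NOD, 0.78 and 0.75 in NOD.H2h4 and 0.53 and 0.79 in congenic T cells, but -0.52 and -0.56 in congenic kidney, -0.56 and -0.41 in NODtoB6 and -0.95 and -0.78 in B6toNOD. All 6 strain T cell arrays lay above 0 and the other 6 below. The group values were 0.77 ± 0.089, adjusted p = 0.000468 in NOD.H2h4, 0.66 ± 0.088, adjusted p = 0.00132 in congenic T cells and -0.86 ± 0.088, adjusted p = 0.000147 in B6toNOD. In NOD.H2h4 it was at -0.036 as deposited (adjusted p = 0.811), so the higher value there depends on centring. The call in congenic kidney (-0.54 ± 0.089, adjusted p = 0.00308) ended without kidney replicate 2 (adjusted p = 0.0505). In NODtoB6 the call (-0.49 ± 0.089, adjusted p = 0.00764) ended without NODtoB6 replicate 1 (adjusted p = 0.0641). Its 2 probes read -0.4 and 1.73 in congenic T cells.

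Of the nucleoside carriers, Slc28a2, a sodium-coupled purine nucleoside carrier, read -1.23 and -1.77 in NOD and -1.05 and -1.0 in NOD.H2h4, low on all of these 4 arrays. The call in NOD (-1.50 ± 0.23, adjusted p = 0.00768) ended without NOD replicate 2 (adjusted p = 0.132), and that in NOD.H2h4 (-1.03 ± 0.23, adjusted p = 0.00919) ended without NOD.H2h4 replicate 1 (adjusted p = 0.0853) or NOD.H2h4 replicate 2 (adjusted p = 0.0741). The complete probe of Slc28a2 alone gave -1.45 in NOD (adjusted p = 0.0726), short of the threshold. Slc29a1, the equilibrative nucleoside carrier ENT1, read -2.92 and -1.03 in congenic T cells (-1.98 ± 0.49, adjusted p = 0.0196), a call that ended without congenic T cell replicate 1 (adjusted p = 0.225). In B6toNOD it read -2.57 and -1.06 (-1.82 ± 0.49, adjusted p = 0.0166), a call that ended without B6toNOD replicate 1 (adjusted p = 0.203).

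Among the 18 mitochondrial carriers, which exchange metabolites across the inner mitochondrial membrane, 3 of 18 were higher and none lower in NOD, 16.7% against 12.4% of all features, where 9 higher and 6 lower was the count over all members. Slc25a37, mitoferrin 1, brings iron into the mitochondria of red cell precursors for haem synthesis. It read 0.72 and 0.96 in NOD, 0.62 and 0.62 in NOD.H2h4, -0.19 and -0.14 in congenic T cells, -0.45 and -0.38 in congenic kidney, 0.33 and 0.42 in NODtoB6 and -0.34 and -0.66 in B6toNOD. The NOD, NOD.H2h4 and NODtoB6 arrays were all above 0 and the other 6 all below. The call in NOD (0.84 ± 0.096, adjusted p = 0.00328) ended without NOD replicate 2 (adjusted p = 0.0673). It rose in NOD.H2h4 (0.62 ± 0.096, adjusted p = 0.00172), though it stood at -0.18 as deposited (adjusted p = 0.297), and fell in B6toNOD (-0.50 ± 0.094, adjusted p = 0.00324). NODtoB6 exceeded B6toNOD by 0.88 ± 0.13, adjusted p = 0.00176.

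Slc25a39, which brings glutathione into mitochondria, read 2.59 and 1.74 in congenic T cells, 1.10 and 1.18 in NOD and 1.08 and 0.63 in NODtoB6, all above 0. It rose in congenic T cells by 2.17 ± 0.27, adjusted p = 0.00102. In NOD (1.14 ± 0.27, adjusted p = 0.0354) the call ended without NOD replicate 1 (adjusted p = 0.184) or NOD replicate 2 (adjusted p = 0.292) or either array of the NOD.H2h4, kidney groups (adjusted p up to 0.0679). Slc25a39 and Slc25a37 are both used by red cell precursors, and the erythroid marker medians by array were 0.5 and 0.45 in NOD and 0.62 and 1.15 in NODtoB6, but -0.51 and -0.68 in congenic T cells, where Slc25a39 was highest. The part of red cell precursors in these values was not tested.

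Other members of the mitochondrial family follow. Slc25a17, which carries cofactors into peroxisomes, read 2.21 and 2.26 in congenic T cells, far above its other T cell groups, at 0.14 and 0.29 in NOD and -0.42 and -0.66 in NOD.H2h4, and rose there by 2.23 ± 0.3, adjusted p = 0.00139. Slc25a11, the oxoglutarate and malate exchanger, rose in NOD.H2h4, at 1.14 and 1.06 (1.10 ± 0.089, adjusted p = 0.000105), and passed there as deposited too. In NOD its arrays read 0.28 and 0.52 (0.40 ± 0.089, adjusted p = 0.0281), and the call ended without NOD replicate 1 (adjusted p = 0.0562) or NOD replicate 2 (adjusted p = 0.337) or either array of the NOD.H2h4, kidney groups (adjusted p up to 0.0601). Slc25a10, the dicarboxylate carrier, rose in B6toNOD, at 0.65 and 0.75 (0.70 ± 0.078, adjusted p = 0.000235), and was at -0.064 as deposited (adjusted p = 0.651). Slc25a36, a pyrimidine nucleotide carrier, fell in B6toNOD, at -1.13 and -1.10 (-1.11 ± 0.076, adjusted p = 2.17e-05). NODtoB6 exceeded B6toNOD by 0.84 ± 0.11, adjusted p = 0.000765.

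Metal carriers import, export and store zinc, manganese, iron and copper, and genes of this class can answer to zinc through the metal response element bound by the factor MTF1. The searched core of that element was TGCGCNC or TGCACNC, on both strands, in promoters of 300 bases (250 before to 50 after the start, RefSeq, GRCm38.p6). Of 32851 such promoters 15.4% held TGCGCNC, 12.6% TGCACNC and 25.7% either, and of the 150 promoters that matched 113 members 23.3%, 14% and 34% did. Of the 18 metal members 13 had a promoter in the table and 7 had a match. The promoters of Slc30a10 and Slc30a2 are shown because these metal genes differed between the marrow transfer groups and hold 3 and 2 matches, which capitals mark and which may overlap. Both lie on the + strand, Slc30a10 at chr1:185454598-185454897 and Slc30a2 at chr4:134343216-134343515. A match is a description of the letters and not a binding site.
Slc30a10: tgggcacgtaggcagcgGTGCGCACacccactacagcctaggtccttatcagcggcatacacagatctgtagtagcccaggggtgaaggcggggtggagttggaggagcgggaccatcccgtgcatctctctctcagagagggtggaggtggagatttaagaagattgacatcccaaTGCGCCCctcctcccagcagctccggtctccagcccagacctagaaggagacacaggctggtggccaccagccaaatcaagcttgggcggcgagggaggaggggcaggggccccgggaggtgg
Slc30a2: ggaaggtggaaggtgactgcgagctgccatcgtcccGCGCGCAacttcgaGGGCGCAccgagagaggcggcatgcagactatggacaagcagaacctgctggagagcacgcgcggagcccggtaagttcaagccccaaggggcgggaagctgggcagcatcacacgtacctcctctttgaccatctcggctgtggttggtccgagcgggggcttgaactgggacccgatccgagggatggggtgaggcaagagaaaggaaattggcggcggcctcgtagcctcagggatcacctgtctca

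Slc30a10, a manganese exporter, and Slc39a14, an importer of manganese, zinc and iron, went opposite ways in B6toNOD. Slc30a10 read -1.76 and -2.29 in B6toNOD and -0.22 and 0.077 in NODtoB6, and Slc39a14 read 1.26 and 1.39 and -0.21 and -0.53. The marrow groups did not overlap for either gene. In B6toNOD, Slc30a10 fell (-2.03 ± 0.15, adjusted p = 3.34e-05) and Slc39a14 rose (1.32 ± 0.1, adjusted p = 3.85e-05), both also as deposited. NODtoB6 minus B6toNOD was 1.96 ± 0.21, adjusted p = 0.000422 for Slc30a10 and -1.69 ± 0.14, adjusted p = 0.000152 for Slc39a14. In NOD.H2h4 Slc30a10 read -0.86 and -0.79 (-0.83 ± 0.15, adjusted p = 0.00415), a call that ended without NOD.H2h4 replicate 1 (adjusted p = 0.0537). Slc39a14 is known to rise in the liver in inflammation. The myeloid marker medians by array were 3.04 and 2.99 in B6toNOD and 1.99 and 1.87 in NODtoB6. The part of myeloid cells in these values was not tested.

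Slc39a8, a zinc, manganese and iron importer close to Slc39a14, fell in B6toNOD, with arrays far apart at -1.87 and -4.23 (-3.05 ± 0.51, adjusted p = 0.00185). Slc30a2, which loads zinc into vesicles, read 0.29 and 1.18 in B6toNOD and -1.05 and -0.62 in NODtoB6, a difference between the marrow groups of -1.57 ± 0.31, adjusted p = 0.00626. Slc30a7, which loads zinc into the Golgi, fell in congenic T cells, at -1.19 and -0.80 (-0.99 ± 0.15, adjusted p = 0.00214). Slc30a9, a mitochondrial zinc carrier, fell in congenic T cells, at -0.66 and -1.23 (-0.94 ± 0.16, adjusted p = 0.00362), and in NOD.H2h4, at -0.91 and -0.89 (-0.90 ± 0.16, adjusted p = 0.00319). Of the other zinc carriers, Slc39a10, an importer of lymphocytes, read -2.98 and -1.81 in NOD.H2h4 (-2.39 ± 0.56, adjusted p = 0.0121), a call that ended without NOD.H2h4 replicate 1 (adjusted p = 0.159).

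Of the haem, iron and copper carriers, Slc48a1, which moves haem out of lysosomes, read 0.94 and 0.63 in congenic T cells (0.78 ± 0.13, adjusted p = 0.00376). It read 0.50 and 0.80 in NOD (0.65 ± 0.13, adjusted p = 0.0203), where the call ended without NOD replicate 1 (adjusted p = 0.0617) or NOD replicate 2 (adjusted p = 0.27). Slc11a2, the iron and manganese importer DMT1, read 1.03 and 1.0 in B6toNOD and 0.12 and -2.81 in NODtoB6, where the low array rests on 1 probe, at -5.81, that has no value on the other array. The complete probe of Slc11a2 read 0.12 and 0.18 there and gave a difference of -0.37 (adjusted p = 0.0457). With both probes the difference (-2.36 ± 0.77, adjusted p = 0.0467) ended without B6toNOD replicate 1 (adjusted p = 0.113) or B6toNOD replicate 2 (adjusted p = 0.108) or either array of the NOD, NOD.H2h4, congenic T cell, kidney groups (adjusted p up to 0.0738). Slc40a1, the iron exporter ferroportin of macrophages and red cell precursors, passed nowhere, with arrays of 0.10 and -0.38 in NOD, -0.19 and 0.51 in NOD.H2h4, -0.48 and -3.68 in congenic T cells and 0.60 and -1.74 in B6toNOD. The copper importer Slc31a1 read -0.86 and -1.65 in congenic T cells (-1.25 ± 0.37, adjusted p = 0.0385), and the call ended without congenic T cell replicate 1 (adjusted p = 0.0681) or congenic T cell replicate 2 (adjusted p = 0.3) or either array of the NOD, NOD.H2h4, kidney groups (adjusted p up to 0.0636). Of the 18 metal carriers, 2 were higher and 5 lower in NOD.H2h4 (38.9%, against 39.7% of all features), 1 and 3 in congenic T cells (22.2%, against 30.9%) and 6 and 5 in B6toNOD (61.1%, against 51.9%).

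**Figure D3:**
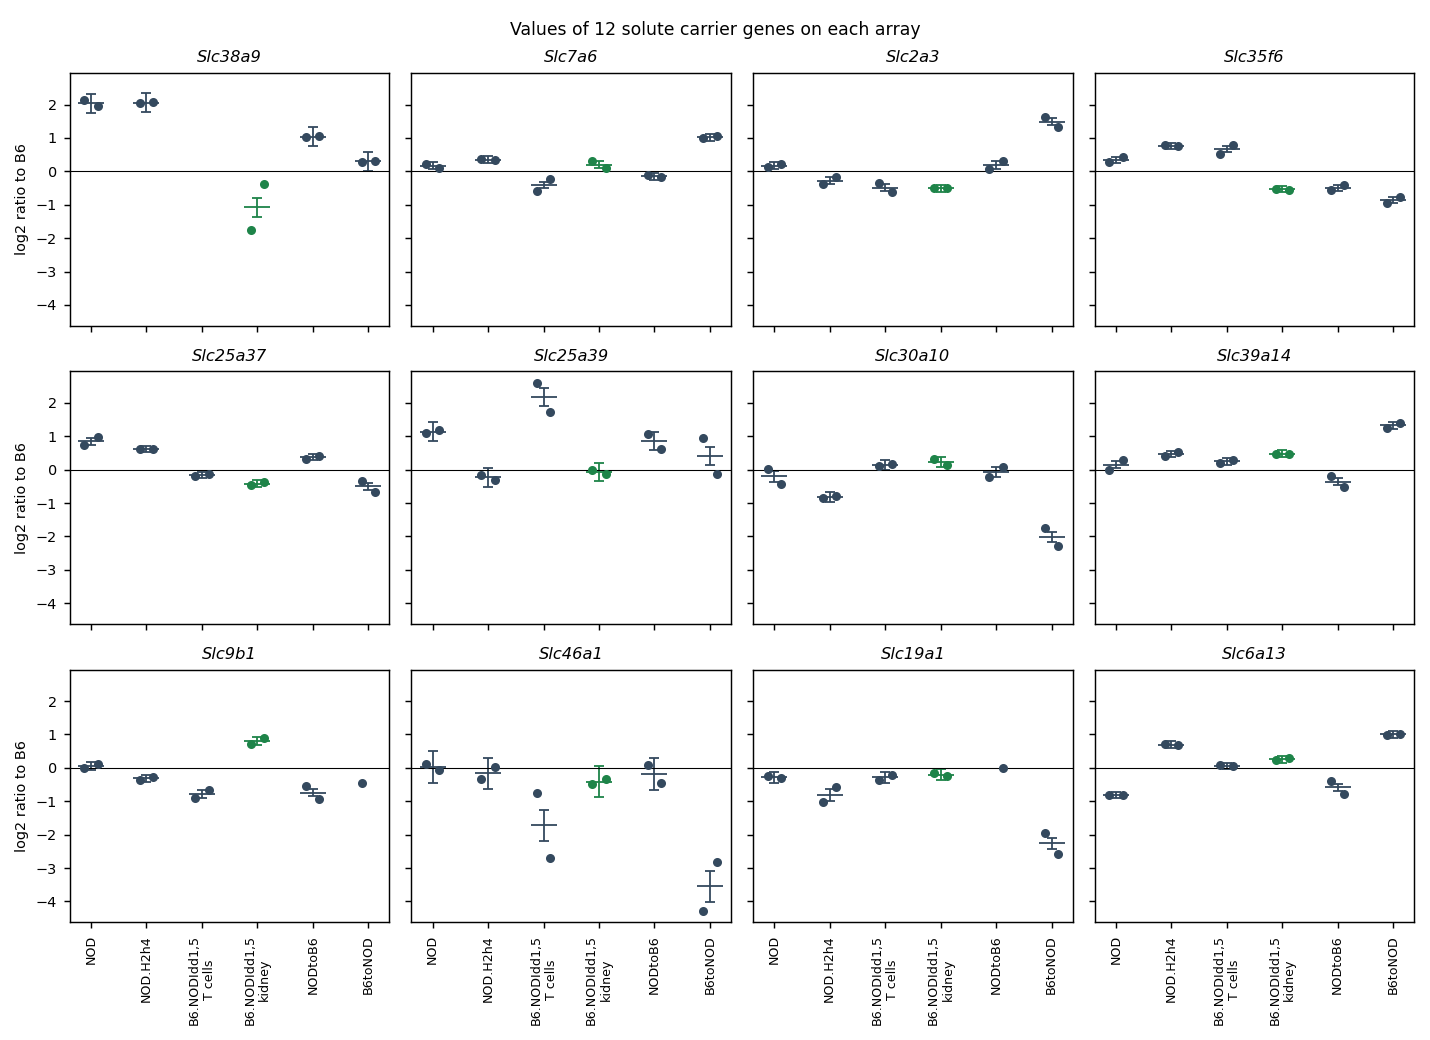
Log2 ratio to B6 of 12 solute carrier genes on each array (points), with the group mean ± standard error of the fit (bars) and congenic kidney in green. Slc2a3 and Slc39a14 sit above 1 on both B6toNOD arrays, and Slc30a10, Slc46a1 and Slc19a1 below -1.5 on both.

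Carriers of ions and protons gave 3 higher and 1 lower of 10 in B6toNOD (40%, against 51.9% of all features, median -0.34) and 2 and 4 of 13 in NOD.H2h4 (46.2%, against 39.7%, median -0.32). Slc9b1, a sodium and proton exchanger best known from sperm, read -0.90 and -0.66 in congenic T cells and 0.71 and 0.90 in congenic kidney, on opposite sides of 0. It fell in the T cells (-0.78 ± 0.12, adjusted p = 0.00345) and rose in the kidney (0.81 ± 0.12, adjusted p = 0.00273), where it was at 0.35 as deposited (adjusted p = 0.0844). Slc12a4, a potassium and chloride cotransporter of cell volume control, read 0.64 and 1.13 in B6toNOD (0.89 ± 0.11, adjusted p = 0.000441) and -0.35 and -0.49 in NODtoB6, a difference of -1.31 ± 0.16, adjusted p = 0.000636. Its B6toNOD value was 0.13 as deposited (adjusted p = 0.334). Slc4a8, a sodium-driven chloride and bicarbonate exchanger, fell in NOD.H2h4, at -0.61 and -1.51 (-1.06 ± 0.19, adjusted p = 0.00318), and in B6toNOD, at -1.21 and -1.12 (-1.17 ± 0.18, adjusted p = 0.00139), and its probes read -1.61 and -0.51 in NOD.H2h4. The complete probe of Slc4a8 alone gave -0.53 there (adjusted p = 0.0578), short of the threshold, and the second probe has no value on B6toNOD replicate 2. Slc14a1, the urea carrier of red cells and vessels of the kidney, rose in B6toNOD, at 0.54 and 0.46 (0.50 ± 0.085, adjusted p = 0.00201), with -0.26 as deposited (adjusted p = 0.131). The kidney cotransporter Slc12a1 of the thick ascending limb read -0.023 and 0.062 in congenic kidney, close to B6 kidney (0.02 ± 0.48, adjusted p = 0.979).

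The folate and other vitamin carriers held the deepest fall of B6toNOD. Slc46a1, the proton-coupled folate carrier, read -4.28 and -2.82 in B6toNOD and 0.081 and -0.44 in NODtoB6. Slc19a1, the reduced folate carrier, read -1.94 and -2.58 in B6toNOD and no value and 0 in NODtoB6. Both genes were far below 0 on both B6toNOD arrays and near 0 on the NODtoB6 arrays that gave a value. The group values in B6toNOD were -3.55 ± 0.47, adjusted p = 0.000549 for Slc46a1 and -2.26 ± 0.17, adjusted p = 7.69e-05 for Slc19a1, and NODtoB6 minus B6toNOD was 3.37 ± 0.66, adjusted p = 0.00593 for Slc46a1. In congenic T cells Slc46a1 read -0.74 and -2.70 (-1.72 ± 0.47, adjusted p = 0.0281), a call that ended without congenic T cell replicate 2 (adjusted p = 0.308). In NOD.H2h4 Slc19a1 read -1.03 and -0.58 (-0.81 ± 0.17, adjusted p = 0.0104), a call that ended without NOD.H2h4 replicate 1 (adjusted p = 0.133). Slc52a3, a riboflavin carrier, fell in B6toNOD, at -1.36 and -0.91 (-1.13 ± 0.16, adjusted p = 0.000902).

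The choline carrier family split. Slc44a1, a choline carrier of the plasma membrane and mitochondria, fell in B6toNOD, at -0.75 and -0.81 (-0.78 ± 0.083, adjusted p = 0.000175), with probes at -1.66 and 0.1, and NODtoB6 exceeded B6toNOD by 0.93 ± 0.12, adjusted p = 0.000707. Slc44a2, a choline carrier that bears a neutrophil antigen in humans, read 0.61 and 0.66 in congenic kidney (0.63 ± 0.1, adjusted p = 0.0026), 0.58 and 0.97 in B6toNOD (0.78 ± 0.099, adjusted p = 0.000466) and -0.71 and -0.73 in NOD.H2h4 (-0.72 ± 0.1, adjusted p = 0.00109), with probes at -1.28 and -0.16 in the last and 0.12 and 1.44 in B6toNOD. It was at 0.18 as deposited (adjusted p = 0.341) in congenic kidney and 0.016 as deposited (adjusted p = 0.92) in B6toNOD, while its fall in NOD.H2h4 also passed as deposited. Slc44a5, of the same family, rose in B6toNOD, at 1.0 and 1.29 (1.15 ± 0.099, adjusted p = 6.43e-05). Slc27a4, which takes up long-chain fatty acids, rose in congenic kidney, at 0.60 and 0.58 (0.59 ± 0.07, adjusted p = 0.000857), and in B6toNOD, at 0.46 and 0.41 (0.44 ± 0.068, adjusted p = 0.00134). As deposited Slc27a4 was at 0.13 as deposited (adjusted p = 0.388) in congenic kidney and passed as lower in B6toNOD, at -0.33 as deposited (adjusted p = 0.0288). Over the 11 vitamin and lipid carriers, 3 were higher and 5 lower of 10 in B6toNOD (80%, against 51.9% of all features), and 0 and 3 of 11 in NOD.H2h4 (27.3%, against 39.7%).

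Slc6a13, the GABA carrier GAT2 of liver and kidney, had the most calls that held among the neurotransmitter and peptide carriers. It read -0.80 and -0.81 in NOD, 0.70 and 0.69 in NOD.H2h4, 0.077 and 0.052 in congenic T cells, 0.22 and 0.28 in congenic kidney, -0.38 and -0.80 in NODtoB6 and 0.98 and 1.02 in B6toNOD. The arrays of a group lay close together, and those of NOD and NODtoB6 were the only ones below 0. It rose in NOD.H2h4 (0.69 ± 0.096, adjusted p = 0.00108) and B6toNOD (1.0 ± 0.095, adjusted p = 0.000103) and fell in NODtoB6 (-0.59 ± 0.096, adjusted p = 0.00506). Its higher values were -0.11 as deposited (adjusted p = 0.451) in NOD.H2h4 and 0.24 as deposited (adjusted p = 0.11) in B6toNOD. The fall in NOD (-0.81 ± 0.097, adjusted p = 0.00383) ended without NOD replicate 2 (adjusted p = 0.0713). NOD.H2h4 exceeded NOD by 1.5 ± 0.14, adjusted p = 0.00143, and NODtoB6 lay below B6toNOD, at -1.59 ± 0.13, adjusted p = 0.000144.

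Slc6a6, the taurine carrier, fell in NOD.H2h4, at -1.06 and -0.96 (-1.01 ± 0.18, adjusted p = 0.00365), with probes at -1.8 and -0.22. In congenic T cells it read 0.75 and 1.13 (0.94 ± 0.18, adjusted p = 0.00702), but its probes stood at -0.69 and 2.57 there and the call ended without congenic T cell replicate 2 (adjusted p = 0.0808). Slc32a1, the vesicular GABA carrier of neurons, fell in congenic kidney, at -2.20 and -1.86 (-2.03 ± 0.27, adjusted p = 0.00123). Slc6a2, the noradrenaline carrier, fell in B6toNOD on arrays far apart, at -3.54 and -0.75 (-2.15 ± 0.53, adjusted p = 0.0118). In NODtoB6, Slc6a18, a neutral amino acid carrier of the kidney brush border, read -0.89 and -1.71 (-1.30 ± 0.2, adjusted p = 0.00541). Slc15a4, a histidine and peptide carrier of lysosomes that immune cells need for signals from Toll-like receptors, read -1.03 and -0.48 in NODtoB6 (-0.76 ± 0.12, adjusted p = 0.00515) and 0.10 and 0.0082 in B6toNOD, a difference of -0.81 ± 0.17, adjusted p = 0.00891. That difference was at -0.28 as deposited (adjusted p = 0.382). Slc6a8, the creatine carrier, was low in both marrow groups, at -1.34 and -2.53 in NODtoB6 and -3.36 and -1.13 in B6toNOD, with probes at -3.86 and -0.63 in the latter. The NODtoB6 call of Slc6a8 (-1.93 ± 0.53, adjusted p = 0.0336) ended without NODtoB6 replicate 1 (adjusted p = 0.0616) or NODtoB6 replicate 2 (adjusted p = 0.29) or either array of the NOD, NOD.H2h4 groups (adjusted p up to 0.057), and the B6toNOD call (-2.25 ± 0.53, adjusted p = 0.00982) ended without B6toNOD replicate 1 (adjusted p = 0.121).

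The carriers of organic ions, bile acids and prostaglandins gave 4 higher and 0 lower of 13 in B6toNOD (30.8%, against 51.9% of all features), where 26.5% of named genes were higher, and 4 and 1 of 14 in NOD.H2h4 (35.7%, against 39.7%). Slco2a1, the prostaglandin carrier, read 1.38 and 1.36 in B6toNOD, 0.61 and 0.56 in NOD.H2h4, 0.29 and 0.40 in NODtoB6 and 0.34 and 0.39 in congenic kidney, above 0 on every array. It rose in B6toNOD by 1.37 ± 0.069, adjusted p = 6.84e-06, the smallest adjusted p-value of the members in that comparison, and NODtoB6 minus B6toNOD was -1.02 ± 0.096, adjusted p = 0.000213. In NOD.H2h4 (0.59 ± 0.07, adjusted p = 0.000525) it was at -0.21 as deposited (adjusted p = 0.136). Slc22a15, an organic ion carrier, read -0.31 and -0.52 in NOD and lay above 0 on the other 10 arrays. It rose in congenic T cells (0.43 ± 0.071, adjusted p = 0.00377), congenic kidney (0.62 ± 0.073, adjusted p = 0.000787), NODtoB6 (0.52 ± 0.073, adjusted p = 0.00274) and B6toNOD (0.85 ± 0.071, adjusted p = 5.66e-05), on arrays of 0.40 and 0.45, 0.61 and 0.64, 0.46 and 0.58 and 0.85 and 0.84. NOD.H2h4 exceeded NOD by 0.69 ± 0.1, adjusted p = 0.00572. None of these calls of Slc22a15 passed as deposited, where its values were 0.25 as deposited (adjusted p = 0.252), 0.17 as deposited (adjusted p = 0.405), 0.29 as deposited (adjusted p = 0.191), 0.086 as deposited (adjusted p = 0.614) and, for NOD.H2h4 minus NOD, 0.042 as deposited (adjusted p = 0.884).

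Slco5a1, an organic anion carrier family member whose substrate is not named here, read 0.44 and 0.67 in NOD, 0.58 and 0.61 in NOD.H2h4 and 0.71 and 0.68 in B6toNOD but -0.56 and -0.61 in congenic kidney. It rose in NOD.H2h4 (0.59 ± 0.094, adjusted p = 0.00199) and B6toNOD (0.70 ± 0.093, adjusted p = 0.000573) and fell in congenic kidney (-0.59 ± 0.094, adjusted p = 0.00273). Both higher values rest on the centring, as array medians as deposited were -0.86 and -0.742 in NOD.H2h4 and -0.644 and -0.878 in B6toNOD. Slc22a17, the receptor of lipocalin 2, rose in NOD.H2h4, at 1.10 and 1.33 (1.21 ± 0.12, adjusted p = 0.000889), a value that rests in part on the centring. The liver carrier Slco1b2 fell in NOD.H2h4, at -2.92 and -5.14 (-4.03 ± 0.5, adjusted p = 0.00105) on arrays far apart, the lowest value of a member in that group. Slco6c1, a carrier known from testis, read -4.27 and -6.11 in NODtoB6 (-5.19 ± 0.78, adjusted p = 0.0037) and -2.96 and 0.64 in B6toNOD. Slc22a7, an organic anion carrier of liver and kidney, read -2.26 and -1.32 in NOD (-1.79 ± 0.27, adjusted p = 0.00749), a call that ended without NOD replicate 1 (adjusted p = 0.0647). In congenic kidney Slc22a7 read 0.94 and 1.28 (1.11 ± 0.27, adjusted p = 0.0157), a call that ended without kidney replicate 1 (adjusted p = 0.0792) or kidney replicate 2 (adjusted p = 0.169).

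Both genes that match the rule without encoding a carrier passed in congenic T cells. The scaffold gene Slc9a3r1, whose protein holds sodium and proton exchangers and other membrane proteins at the cell surface, read -0.42 and -0.76 there (-0.59 ± 0.1, adjusted p = 0.00398) and 0.60 and 0.72 in congenic kidney (0.66 ± 0.1, adjusted p = 0.00227), on opposite sides of 0. Its higher kidney value rests largely on the centring, as array medians there were -0.408 and -0.509 as deposited. Slc7a6os fell in congenic T cells, on arrays far apart at -5.36 and -1.68 (-3.52 ± 0.74, adjusted p = 0.0134), with no value in the kidney.

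Setting kidney beside T cells of the congenic mice addresses whether a carrier differed from B6 alike in both tissues. Each side was measured against B6 cells of its own tissue, so the comparison is of differences from B6 and not of levels in kidney and T cells. For Slc9b1 the difference was 1.58 ± 0.16, adjusted p = 0.00123 and for Slc9a3r1 1.25 ± 0.14, adjusted p = 0.00103, higher against B6 in kidney and lower in T cells. For Slc25a17 it was -2.33 ± 0.42, adjusted p = 0.00764 and for Slc25a39 -2.24 ± 0.38, adjusted p = 0.00585, where the kidney arrays read -0.058 and -0.13 and -0.01 and -0.14, close to B6. For Slc35f6 it was -1.20 ± 0.12, adjusted p = 0.000716, for Slc48a1 -1.05 ± 0.19, adjusted p = 0.00648 and for Slc16a13 -0.90 ± 0.11, adjusted p = 0.0013. Slc48a1 was low in the kidney, at -0.32 and -0.22, and Slc16a13 near 0, at -0.0002 and 0.029. For Slc6a6 it was -1.79 ± 0.26, adjusted p = 0.00261, with kidney arrays at -0.75 and -0.96, and its T cell side rests on 1 of 2 probes that disagree. The differences of Slc35f6 and Slc16a13 also come from 1 of 2 probes. The other probe of Slc35f6 read -0.35 and -0.46 in T cells and -0.25 and -0.20 in kidney. That of Slc16a13 read 0.14 and 0.12 in T cells and 0.227 and 0.205 in kidney.

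The other differences between congenic tissues did not all hold. For Slc5a11 it was -3.57 ± 0.7, adjusted p = 0.0105, a call that ended without kidney replicate 1 (adjusted p = 0.0595) or kidney replicate 2 (adjusted p = 0.06). For Slco3a1, a prostaglandin and thyroxine carrier with T cell arrays at 1.73 and 1.12, it was -1.70 ± 0.43, adjusted p = 0.0273, a call that ended without kidney replicate 1 (adjusted p = 0.0821) or kidney replicate 2 (adjusted p = 0.145) or congenic T cell replicate 1 (adjusted p = 0.113). Erythroid markers also differed, with 5 of 7 higher in kidney than in T cells against B6 and a median difference of 1.14, while Slc25a39 differed the other way. Their part was not tested. Slc44a4, of the MHC region, and Slc4a3, of the Idd5 region, passed in no comparison: Slc44a4 read 1.47 and -0.68 in congenic T cells and -0.38 and -0.22 in congenic kidney, and Slc4a3 read 0.23 and 0.31 and -0.56 and -0.71. Slc11a1 and Slc39a7, which lie in those intervals, were not analysed here.

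**Figure D4:**
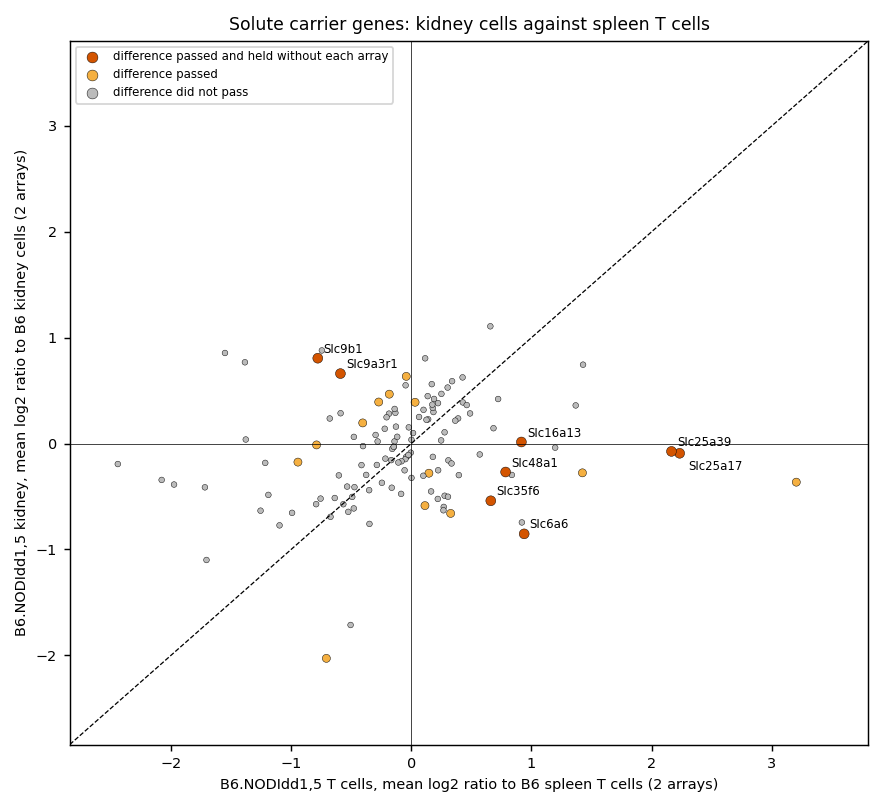
Log2 ratio to B6 of the solute carrier genes in congenic T cells (x axis) and congenic kidney (y axis), each point a gene measured in both. Slc9b1 and Slc9a3r1 lie above 0 in kidney and below 0 in T cells, and Slc25a17 and Slc25a39 lie to the right near 0 in kidney.

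The marrow transfer groups ask whether a carrier followed the marrow donor or the recipient, as far as T cells came from the donor, which was not measured here. Their difference, NODtoB6 minus B6toNOD, uses arrays on which the same orientation was assumed, and gave the largest set of held calls among the differences, 9 higher and 18 lower. The higher genes were Slc46a1, Slc35c1, Slc30a10, Slc35a4, Slc66a1, Slc38a1, Slc44a1, Slc25a37 and Slc25a36, of which Slc38a1 did not pass with its complete probe alone. The lower ones include Slc39a14, Slc6a13, Slc30a2, Slc35b2, Slc12a4, Slc2a3, Slc7a6 and Slco2a1, given above, and Slco4c1, an organic anion carrier of the kidney, at -1.22 ± 0.21, adjusted p = 0.003. For most of these the change against B6 lay in B6toNOD. Slc35a4, Slc35e2 and Slc15a4 were the members of the held set whose value against B6 held in NODtoB6 and not in B6toNOD. Over the same groups the 6 myeloid markers differed by a median of -1.34, with 4 lower in NODtoB6, and the part of myeloid cells was not tested.

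**Figure D5:**
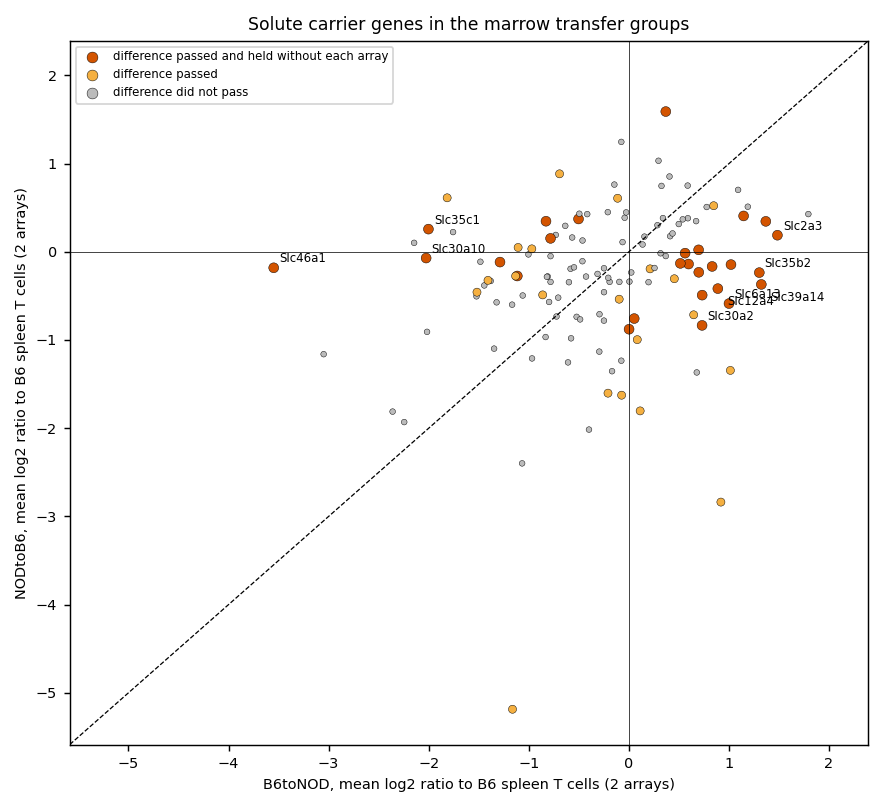
Log2 ratio to B6 of the solute carrier genes in B6toNOD (x axis) and NODtoB6 (y axis), each point a gene measured in both. Slc46a1 and Slc30a10 lie deep below 0 on the B6toNOD axis, and Slc2a3, Slc39a14 and Slco2a1 above it, with NODtoB6 values near 0.

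NOD.H2h4 and NOD share the NOD background and differ at the MHC, and both comparisons use a B6 channel. Beside Slc6a13 and Slc22a15, whose difference held, Slc5a6 exceeded NOD by 0.88 ± 0.14, adjusted p = 0.00736, a call that ended without NOD.H2h4 replicate 2 (adjusted p = 0.0501). Slc25a11 did so by 0.70 ± 0.13, adjusted p = 0.0105, a call that ended without NOD.H2h4 replicate 1 (adjusted p = 0.0653) or NOD.H2h4 replicate 2 (adjusted p = 0.0518). Slc22a17 did so by 1.04 ± 0.17, adjusted p = 0.0145, a call that ended without NOD.H2h4 replicate 1 (adjusted p = 0.0564) or NOD.H2h4 replicate 2 (adjusted p = 0.0818) or NOD replicate 1 (adjusted p = 0.0748) or NOD replicate 2 (adjusted p = 0.0628). Slc22a7 gave 1.92 ± 0.38, adjusted p = 0.014, a call that ended without NOD.H2h4 replicate 1 (adjusted p = 0.0755) or NOD.H2h4 replicate 2 (adjusted p = 0.0648) or NOD replicate 1 (adjusted p = 0.0642). Slco1b2 was lower, at -3.34 ± 0.7, adjusted p = 0.0218, and the call ended without NOD replicate 1 (adjusted p = 0.0859) or NOD replicate 2 (adjusted p = 0.112). Slc38a9, highest in both groups, did not differ past the threshold (0.021 ± 0.4, adjusted p = 0.982).

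Lists drawn up by function gave counts that can be read beside the shares of named genes above. Of all features, 12.4% passed in NOD, 39.7% in NOD.H2h4, 30.9% in congenic T cells, 33.9% in congenic kidney, 27.4% in NODtoB6 and 51.9% in B6toNOD. A count near those shares is no result about its list. A list of 17 carriers that T cells are known to raise on activation includes Slc2a1, Slc1a5, Slc3a2, Slc7a6 and Slc38a1. In congenic T cells none was higher and 8 of 16 were lower (median -0.44, beside -0.01 for all features). Slc1a5 was not tested there, with 1.91 on replicate 1 and no value on replicate 2. These 8 were Slc16a3, Slc29a1, Slc2a3, Slc38a1, Slc38a2, Slc3a2, Slc43a3 and Slc7a6, and of their calls only that of Slc38a1 held without each array. In NOD.H2h4 1 was higher and 6 lower of 17 (median -0.46), in NOD 0 and 1 of 17 (median 0.08), in NODtoB6 0 and 2 of 16 (median -0.1), and in B6toNOD 4 and 7 of 16 (median -0.32). Of the T cell markers Ccr7, Cd247, Cd28, Cd4 and Il7r, 3 of 4 tested were lower in congenic T cells. Their median was -0.81, on arrays at -0.95 and -0.41. Il7r read 0.19 and 0.26 there, and Cd4 had no value. The same markers, Cd4 included, were also low in congenic kidney, with array medians of -0.58 and -0.74 and Il7r at 0.22 and 0.15. The part of the T cell markers in the list counts was not tested. Of 16 carriers of the kidney tubule, 3 were higher and 1 lower in congenic kidney (median -0.11): the phosphate carrier Slc20a2 (1.53 ± 0.42, adjusted p = 0.0333), Slc22a7 and the fatty acid carrier Slc27a2 (0.80 ± 0.23, adjusted p = 0.0287) were higher and Slco4c1 (-0.76 ± 0.15, adjusted p = 0.00636) lower. None of these 4 calls held: that of Slc20a2 ended without kidney replicate 1 (adjusted p = 0.277) or kidney replicate 2 (adjusted p = 0.11) or either array of the NOD, NOD.H2h4 groups (adjusted p up to 0.0593), that of Slc27a2 ended without kidney replicate 1 (adjusted p = 0.174) or kidney replicate 2 (adjusted p = 0.179) and that of Slco4c1 ended without kidney replicate 1 (adjusted p = 0.0759) or kidney replicate 2 (adjusted p = 0.0653). They stand beside 7 kidney segment markers with a median of 0.44 and 3 higher. In congenic T cells the same tubule carriers gave 1 higher and 1 lower of 14.

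Neighbouring classes of membrane proteins and regulators were counted in the same way. A list of 9 transporters of red cell precursors, Slc4a1 included, stands beside the erythroid marker values above. Of these, 3 were higher and none lower in NOD (against 12.4% of all features passing). They were Slc25a37, Slc25a39 and Slc14a1, and the call on Slc14a1 (0.33 ± 0.087, adjusted p = 0.0488) ended without NOD replicate 1 (adjusted p = 0.127) or NOD replicate 2 (adjusted p = 0.435) or either array of the NOD.H2h4, congenic T cell, kidney, NODtoB6 groups (adjusted p up to 0.0914). The complete probe of Slc14a1 alone gave 0.034 (adjusted p = 0.878). Of 21 ABC transporters, which pump substrates with ATP, 4 were higher and 6 lower in B6toNOD (against 51.9% of all features passing). In NODtoB6 4 were higher and 0 lower of 19 (against 27.4%). Abcb6, which handles porphyrins and was the highest of them in NODtoB6, was at 1.14 ± 0.12, adjusted p = 0.000996 there and 0.72 ± 0.12, adjusted p = 0.00205 in B6toNOD. Of 11 ion and metal pumps and their subunits, 3 were higher and 2 lower in congenic T cells (against 30.9% of all features). The copper pump Atp7b was at 3.29 ± 0.62, adjusted p = 0.00646 there. The aquaporins Aqp6, Aqp7 and Aqp11 gave 1 lower of 3 in NOD.H2h4 (against 39.7% of all features passing). It was Aqp7 (-2.42 ± 0.22, adjusted p = 0.00148).

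Of 18 regulators of solute carriers, of which Slc9a3r1 is a member, 7 were higher and 3 lower in B6toNOD (against 51.9% of all features). In congenic T cells 0 were higher and 6 lower (against 30.9%). The glucose uptake inhibitor Txnip was at 0.43 ± 0.06, adjusted p = 0.000797 in B6toNOD and -0.41 ± 0.061, adjusted p = 0.00206 in congenic T cells. The kinase Sgk1, which raises many carriers at the cell surface, was at 0.45 ± 0.07, adjusted p = 0.00129 and -0.62 ± 0.07, adjusted p = 0.000669. Atf4, the factor of the amino acid response, was at 0.90 ± 0.096, adjusted p = 0.000183 and -0.79 ± 0.096, adjusted p = 0.000856. Emb, a chaperone of the lactate carriers, was at 0.71 ± 0.098, adjusted p = 0.00068 and -0.36 ± 0.098, adjusted p = 0.0283, and Bsg, another, at 0.87 ± 0.14, adjusted p = 0.00153 in B6toNOD. Txnip, Sgk1, Atf4 and Emb passed as higher in B6toNOD and lower in congenic T cells, groups that were not compared directly. The higher values rest on the centring: as deposited, B6toNOD stood at -0.34 for Txnip (adjusted p = 0.0401), -0.31 for Sgk1 (adjusted p = 0.0481), 0.14 for Atf4 (adjusted p = 0.457), -0.05 for Emb (adjusted p = 0.781) and 0.10 for Bsg (adjusted p = 0.637). These names were chosen after their values were seen. The lists were chosen with earlier results of these data known, so their counts are descriptions.

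Where a member had more than 1 probe, the probes often differed. Of 173 pairs of such a gene and a group, 42 had probes more than 1 apart on the log2 scale, in 26 of 32 genes, and the median difference was 0.55. Probes of Slc4a2 read -1.54 and 1.35 in B6toNOD, those of Slc38a4 -2.69 and 0.75 there, and those of Slc25a5, which exchanges ADP for ATP, between 0.22 and 2.4. The average of such probes is a value that no probe shows. In 17 pairs of a gene and a group, over 13 genes, the 2 arrays averaged different probes because a probe had no value on 1 of them. With complete probes alone, where a gene has one, 328 of the 343 calls were kept and 15 were lost.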

How the data were processed

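RNA of spleen T cells or kidney cells was hybridised with B6 RNA on 12 mouse cDNA arrays with 2 channels. Each deposited value is a log2 ratio of experimental to B6 signal, per the labels and the values. The tools and normalisation behind them were not given in the sources used here. Of 20736 probes, 13033 carry 1 symbol, 312 several and 7391 none, and 12850 of the 13033 were found in a RefSeq table. The 146 cells that hold the log2 of a ratio of 100000 were treated as no value, 1 of them in a member probe. Each array was centred on its median, probes of a gene were averaged, and probes with no or several symbols stayed as features of their own, giving 16411 features.

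Group means of all 12 arrays were fitted with limma 3.58.1 (lmFit, eBayes, R 4.3.3), which was tested on simulated data. The contrasts were each group against 0 and 3 differences, adjusted by Benjamini-Hochberg over all features with a value on every array compared. The number of arrays limits the precision.

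Members and lists were chosen with earlier results of these data known. Candidates for naming were, per comparison, up to 8 members per direction with the largest values past the threshold whose arrays have the same sign. To them came a fixed set (Slc2a1, Slc3a2, Slc1a5, Slc16a1, Slc20a1, Slc29a1, Slc12a1, Slco1b2, Slc40a1, Slc25a37, Slc44a4 and Slc4a3). Members whose call held without each array were added after values were seen, as were further members that a paragraph compares with these. Not all candidates are described above, so the largest changes are not all shown. Those left out include Slc43a2, at -4.57 and -1.10 in NODtoB6, and Slc25a53, at -2.20 and -3.33 in congenic kidney. Slc13a4, at -4.30 and -1.67 in NOD.H2h4, and Slc31a2, at 3.45 and 0.13 in B6toNOD, were also left out. Alternatives were no centring, scaling to the same spread, a running median over 501 probes, other filters on missing values, the median of probes, only the probes with a value on all 12 arrays (chosen after seeing the data), fewer arrays, a replicate block, and leaving out each array.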

Additional observations from a re-analysis of the deposited data

Results flagged for a closer look

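In the congenic mice, the difference from B6 was itself different in kidney and T cells for the 16 members below, by the limma test of kidney minus T cells. They are the largest such differences, 8 in each direction. Higher in kidney than in T cells were Slc9b1 at 1.58, Slc9a3r1 at 1.25, Slc38a1 at 0.78, Slc30a9 at 0.77, Slc44a2 at 0.68, Slc35d2 at 0.66, Slc14a1 at 0.65 and Slc7a6 at 0.60 on the log2 scale. Lower in kidney were Slc5a11 at -3.57, Slc25a17 at -2.33, Slc25a39 at -2.24, Slc6a6 at -1.79, Slco3a1 at -1.70, Slc32a1 at -1.32, Slc35f6 at -1.20 and Slc48a1 at -1.05. Of these, Slc9b1, Slc9a3r1, Slc25a17, Slc25a39, Slc6a6, Slc35f6 and Slc48a1 held when each array was left out, and Slc38a1, Slc30a9, Slc44a2, Slc35d2, Slc14a1, Slc7a6, Slc5a11, Slco3a1 and Slc32a1 did not. The differences of Slc6a6 and Slc35f6 come from 1 of 2 probes. Slc30a9 read -0.24 and -0.11 in kidney and -0.66 and -1.23 in T cells, and its difference (0.77 ± 0.22, adjusted p = 0.0449) ended without kidney replicate 1 (adjusted p = 0.132) or kidney replicate 2 (adjusted p = 0.194) or congenic T cell replicate 2 (adjusted p = 0.183) or either array of the NOD, NOD.H2h4, B6toNOD groups (adjusted p up to 0.074). For Slc44a2 (0.68 ± 0.14, adjusted p = 0.0128), with T cell arrays near 0, the call ended without kidney replicate 1 (adjusted p = 0.0667) or kidney replicate 2 (adjusted p = 0.0792) or congenic T cell replicate 2 (adjusted p = 0.0554). Slc35d2 read 0.38 and 0.40 in kidney and -0.25 and -0.29 in T cells (0.66 ± 0.17, adjusted p = 0.0274), and the call ended without kidney replicate 1 (adjusted p = 0.117) or kidney replicate 2 (adjusted p = 0.124) or congenic T cell replicate 1 (adjusted p = 0.0739) or congenic T cell replicate 2 (adjusted p = 0.0915). The difference of Slc38a1 averages 1 probe in T cells and 2 in kidney, and its complete probe alone gave 0.59 (adjusted p = 0.13). The tissues have different B6 channels, so a difference of B6 levels between the tissues cannot be told apart from a difference in the congenic mice.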

How the results depend on the processing

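As deposited, without centring, the number of members past the threshold was 4 in NOD, 97 in NOD.H2h4 and 47 for NOD.H2h4 minus NOD, and with a common spread it was 37 in NOD and 43 in B6toNOD. With the arrays compared alone it was 0 in congenic T cells, NODtoB6, B6toNOD and NODtoB6 minus B6toNOD, 80 in congenic kidney and 36 for NOD.H2h4 minus NOD, and with the 10 spleen T cell arrays 13 for the latter. With each array left out in turn, the counts lay between 1 and 19 in NOD, 27 and 64 in NOD.H2h4, 31 and 48 in congenic T cells, 11 and 45 in congenic kidney, 25 and 52 in NODtoB6, 61 and 70 in B6toNOD, 9 and 27 for kidney minus T cells, 5 and 33 for NOD.H2h4 minus NOD, and 42 and 52 for NODtoB6 minus B6toNOD. The lowest count came without an array of a group compared in every case but congenic T cells, where it came without either NOD array. Slc35f6 in NOD.H2h4 turned to -0.036 as deposited (adjusted p = 0.811) and Slc25a37 to -0.178 (adjusted p = 0.297), where the arrays' negative medians are not removed. Slc3a2 in B6toNOD, not past the threshold at 0.11 ± 0.36, was -0.767 without B6toNOD replicate 2 (adjusted p = 0.0361) and 0.992 without replicate 1. Its arrays average different probes there, since 1 of its 2 probes, at -2.71 on replicate 1, has no value on replicate 2, while the other reads 1.17 and 0.99.

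Of the 343 calls on members, 133 were lost as deposited, 8 of them to a call of the opposite sign, 66 with a common spread, 57 with a running median along the probe order, 226 with the arrays compared alone and 50 of 282 with the spleen T cell arrays alone. Requiring a value on all 12 arrays lost 0 of 305, no filter on missing values 4 of 343, and the median of probes 1 of 343. An alternative chosen after seeing the data, which used only complete probes where a gene had one, lost 15 of 343, among them those of Slc38a1 in B6toNOD and for NODtoB6 minus B6toNOD and of Slc4a8 in NOD.H2h4, which had held without each array. The cause was not tested where the construction does not show it. Replicate numbers were not found to pair the arrays: over 15 pairs of groups, deviations of same-numbered arrays correlated between -0.04 and 0.02, 0 of them over 0.1. With the replicate number as a block, 27 of 343 calls were lost, and members past the threshold numbered 12, 49, 35, 37, 37 and 66 in NOD, NOD.H2h4, congenic T cells, congenic kidney, NODtoB6 and B6toNOD, and 21, 20 and 45 for the differences kidney minus T cells, NOD.H2h4 minus NOD and NODtoB6 minus B6toNOD. Intensities are not analysed here, so a ratio of a dim spot cannot be told from that of a bright one.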
